A study of Mus musculus with 2 samples.

Results

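The regions described here are 386 of the 742 wild-type H3K9me2 peaks on chromosomes 1 to 19 of embryonic mouse cortex. They were selected on position, by having the summit of at least 1 peak from the TBC1D3 transgenic library on the same chromosome within 100 kb of their own summit. They are called near peaks below, and the other 356 autosomal wild-type peaks are called the remaining peaks. The whole wild-type list holds 743 peaks and the whole transgenic list 6253, of which 6092 lie on the autosomes.

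Both libraries were made from cortex of C57BL/6 embryos at embryonic day 15.5, 1 wild type and 1 carrying TBC1D3 as a transgene, by chromatin immunoprecipitation with an antibody to H3K9me2 and sequencing. The promoter that drives the transgene and the number of embryos behind each library are not given in the sources used here. With 1 library per genotype there was no replicate and no test between genotypes. Intervals below are 95% intervals that cover counting error only and take peaks as independent, although some lie close together.

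H3K9me2 is dimethylation of lysine 9 of histone H3, a mark of repressed chromatin laid down in large part by the methyltransferases G9a (Ehmt2) and GLP (Ehmt1). It is known for broad domains, many of them at the nuclear lamina and over genes that a cell type does not use. Narrow calls from one domain need not overlap, so the lists were compared by distance. The deposited peaks are narrow calls, and their median widths were 57 bp (wild type) and 115 bp (transgenic). No domain was called, so the lists hold points and not domains.

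The lists limit what follows. No wild-type peak had a q below 0.136 and no transgenic peak one below 0.0673, which leaves 0 peaks at a q of 0.05. The wild-type library held 26735120 ChIP tags, the transgenic library 20697113, and the median peak of each list rested on 6 fragments. The tissue label could not be checked from peaks, which do not report expression.

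Sequence was at hand for promoters only, and 1 near peak reached one. Of 373 near peaks on the 18 autosomes whose RefSeq promoter windows (GRCm38.p6) were used, this was the peak in Prlr, the prolactin receptor gene, at chr15:10223841-10223897. Among the remaining peaks 1 of 339 reached a promoter window, at Olfr1366, an olfactory receptor gene, and among transgenic peaks 20 of 5843 did. The share of autosomal sequence in such windows was not counted, so these numbers show neither an excess nor a lack. The Prlr window belongs to 1 of the 3 starts listed for this gene and lies inside its body, the summit being 46.6 kb from the first base of the gene. The 250 bases before that start, chr15:10223656-10223905 on the plus strand of GRCm38, are shown because they are the one promoter stretch under a near peak, with the 57 bases of the peak in capitals.
Prlr: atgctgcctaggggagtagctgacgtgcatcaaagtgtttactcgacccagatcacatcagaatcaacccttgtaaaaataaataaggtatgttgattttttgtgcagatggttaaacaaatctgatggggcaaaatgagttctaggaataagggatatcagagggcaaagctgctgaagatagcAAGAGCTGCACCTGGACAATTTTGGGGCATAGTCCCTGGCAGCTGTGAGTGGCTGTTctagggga
This stretch is 44.8% G and C and holds 2 CpG pairs. Over the 31396 autosomal promoters used, the median was 52.4% (quartiles 45.2 and 61.2) and 6 CpG pairs, and 24.1% of them had as little G and C. The peak over it rested on 5 fragments with a fold enrichment of 3.69. Its nearest transgenic summit lay 52.4 kb away, and 2 transgenic summits lay within 100 kb.

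Wild-type peaks lay near transgenic summits more often than autosomal positions do. The share was 52.0% (95% interval 48.4 to 55.7). Transgenic summits with 100 kb to each side cover 36.1% of the 2403 Mb of autosomes, counted from 3 Mb to the last annotated gene end of each chromosome. The ratio of the shares was 1.44 (1.34 to 1.54). It was 1.45 when the covered share was taken chromosome by chromosome, from which 267 near peaks would follow. It was 1.37 when that share was taken by the number of coding genes in 1 Mb windows, from which 281 would follow. The count observed was 386 in both. These 2 settings were added after seeing the data. Sequence that reads cannot be mapped to counts as autosomal length but holds no peak in either list, and its part in the ratio was not tested.

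A comparison within each list put this share in place. Of the 6092 autosomal transgenic peaks, 50.8% (49.5 to 52.0) had another transgenic summit within 100 kb. The interval overlaps that of the wild-type share. Of the autosomal wild-type peaks, 92 had another wild-type summit within 100 kb, which is 12.4% (10.1 to 15). Such summits cover 5.8% of the autosomes, so the ratio was 2.14. Seen from the transgenic side, 542 peaks had a wild-type summit within 100 kb, or 8.90% (8.19 to 9.64), and the ratio to the same 5.8% was 1.54. This interval lies wholly below that of the 12.4%. Within a list, however, both peaks of a neighbouring pair are counted, so the interval of the 12.4% is too narrow. The difference between these shares was not tested. The lists differ in length, so each share is read against its own covered share.

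The density of transgenic summits around wild-type peaks fell with distance over the whole range examined. Over all 742 autosomal wild-type peaks it was 14.8 per Mb (9.29 to 22.4) within 1 kb, where 22 transgenic summits lay, against an autosomal mean of 2.53. It was 4.42 (3.36 to 5.70) from 1 to 10 kb, 3.89 (3.41 to 4.43) from 10 to 50 kb and 3.69 (3.27 to 4.16) from 50 to 100 kb. Beyond the distance of the rule it was 3.42 (3.13 to 3.73) from 100 to 200 kb, 3.19 from 200 to 500 kb and 2.89 from 500 to 1000 kb. From 1000 to 2000 kb it was 2.72, or 1.07 times the mean. It came to 2.65 (2.60 to 2.70) from 2000 to 5000 kb, which is 1.04 times the mean. Windows of different wild-type peaks overlap, and this last bin counted 11567 transgenic summits where the autosomes hold 6092. Intervals at long distances are therefore too narrow. By these densities the excess was steep in the first kb and shallow beyond it, with no step at 100 kb.

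Near and remaining peaks parted on transgenic density just outside the rule and not farther out. From 100 to 200 kb the density was 4.04 per Mb (3.61 to 4.52) around near peaks and 2.75 (2.38 to 3.17) around remaining peaks. From 200 to 500 kb it was 3.22 (2.99 to 3.46) and 3.17 (2.94 to 3.42), and from 500 to 1000 kb 2.83 and 2.96. These values come from the same pair of lists as the rule and are a description.

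**Figure D1:**
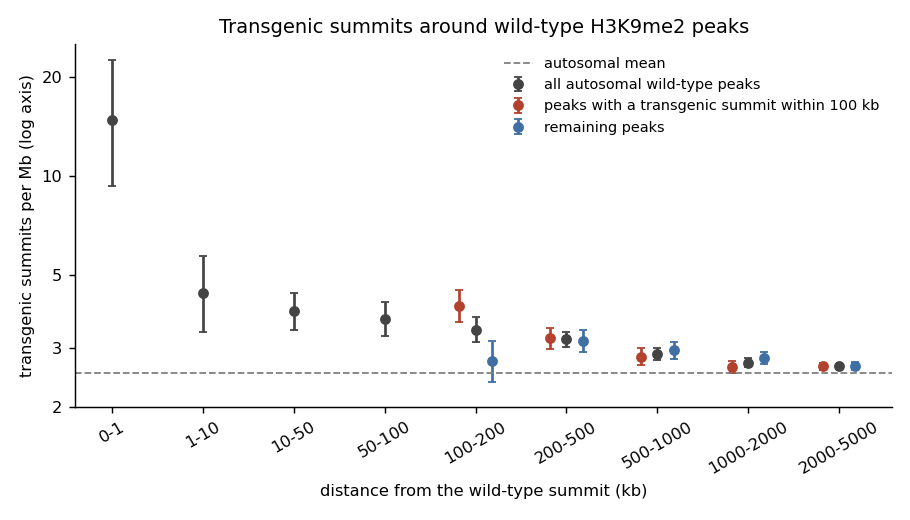
Transgenic summits per Mb (log axis) against distance from the wild-type summit (kb), for all autosomal wild-type peaks and, beyond 100 kb, for near and remaining peaks apart, with 95% Poisson intervals and the autosomal mean of 2.53 as a dashed line. The density falls from 14.8 within 1 kb to 2.65 at 2000 to 5000 kb, and near and remaining peaks separate from 100 to 200 kb only.

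Among the distances listed, the share of wild-type peaks with a transgenic summit exceeded the covered share most at 100 kb. The gap was 15.9 percentage points there, 10.6 at 50 kb (31.5% against 20.9%), 14.5 at 200 kb (71.3% against 56.8%) and 9.65 at 500 kb (92.7% against 83.1%). As a ratio it was largest at the shortest distance, 5.91 within 1 kb (22 peaks) and 2.1 within 10 kb (75 peaks), and it fell to 1.05 within 1000 kb. A gap in percentage points must be small where little or nearly all of the autosomes is covered. Where it peaks depends on the length of the transgenic list, so its peak at 100 kb singles out no distance.

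Within the near peaks the median distance to the closest transgenic summit was 38.7 kb (quartiles 14.6 and 64.5), and it ran from 0.017 to 99.5 kb. The closest transgenic summit lay at a lower coordinate for 192 near peaks and at a higher one for 194. A single transgenic summit was within reach of 243 near peaks, 2 of 101, 3 of 34 and 4 to 6 of the last 8. In 78 near peaks (20.2%) transgenic summits stood on both sides. Joining each near peak to its transgenic summits gave 356 separate groups with a median span of 61.3 kb and a longest span of 242 kb. Of these, 217 paired 1 wild-type with 1 transgenic summit, 27 held at least 2 wild-type summits, and 199 touched no coding gene.

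The threshold divided no natural gap. The 3 near peaks closest to the limit had their transgenic summit at 99.5 kb (chromosome 7, 37.0 kb from the coding gene 4930571K23Rik), 98.7 kb (chromosome 5, 127 kb from Pdgfra, a growth factor receptor) and 97.8 kb (chromosome 6, inside Foxp2, a forkhead transcription factor). The 3 remaining peaks just beyond it stood at 102 kb (chromosome 9, 11.2 kb from Tbx20), 104 kb (chromosome 10, 696 kb from Tmpo) and 106 kb (chromosome 14, inside Nrg3, a neuregulin).

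The excess was present on every autosome, though not by a margin that each chromosome could show alone. The share of near peaks was above the covered share on 19 of 19 chromosomes, and its interval lay wholly above it on 8, chromosomes 1, 5, 6, 7, 11, 12, 14 and 16. Chromosome 16 had the highest share, with 17 of 23 peaks (73.9%, interval 51.6 to 89.8) against 38.8% of its length. Chromosome 7 had the highest ratio, 2.09, with 32 of 51 peaks (62.7%) against 30.1%. The lowest share was on chromosome 19, with 6 of 17 peaks (35.3%, 14.2 to 61.7) against 33.8%.

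**Figure D2:**
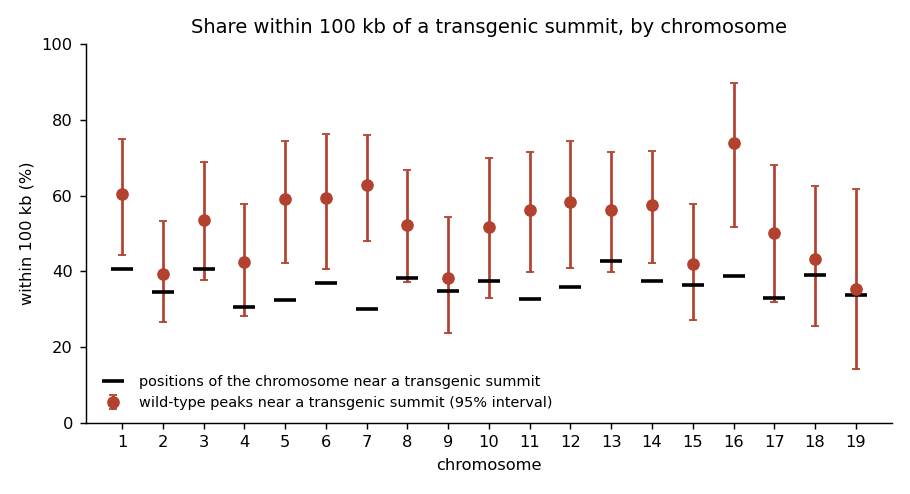
Percent within 100 kb of a transgenic summit for each autosome, as points with 95% exact binomial intervals for wild-type peaks and as black lines for positions of the chromosome. The points lie above the lines on 19 of 19 chromosomes, from a ratio of 1.04 on chromosome 19 to 2.09 on chromosome 7.

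In strength of the wild-type call, a measure the rule did not use, near and remaining peaks had overlapping values. Their median fold enrichment, the authors' value for each peak, was 3.89 (quartiles 3.50 and 4.38, range 3.19 to 6.25), and that of the remaining peaks 3.95 (3.49 and 4.48, range 3.31 to 6.48). The intervals of the medians, 3.83 to 3.97 and 3.83 to 4.0, overlapped. The median −log10 p was 4.08 in both, and so was the median of 6 fragments. The highest count was 9 fragments among near peaks and 12 among remaining peaks. By strength, the share that was near was 55.6% (48.4 to 62.7) of 196 peaks on 5 fragments, 51.0% of 255 on 6, 50.8% of 189 on 7 and 50% (39.9 to 60.1) of 102 on 8 or more. At a fold of at least 5 it was 50% of 62 peaks (37.0 to 63.0).

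The transgenic peaks concerned had strengths like those of the other transgenic peaks. The 542 within 100 kb of a wild-type summit had a median fold of 3.61 (quartiles 3.34 and 4.03) and the other 5550 a median of 3.62 (3.30 and 4.03). Their −log10 p had medians of 4.30 and 4.35, and both had a median of 6 fragments. The highest transgenic pileups were not among them, as their maximum was 12 fragments against 22 in the others. The larger set is the more likely to hold the extreme values, and the mean fragments were 6.65 and 6.61.

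**Figure D3:**
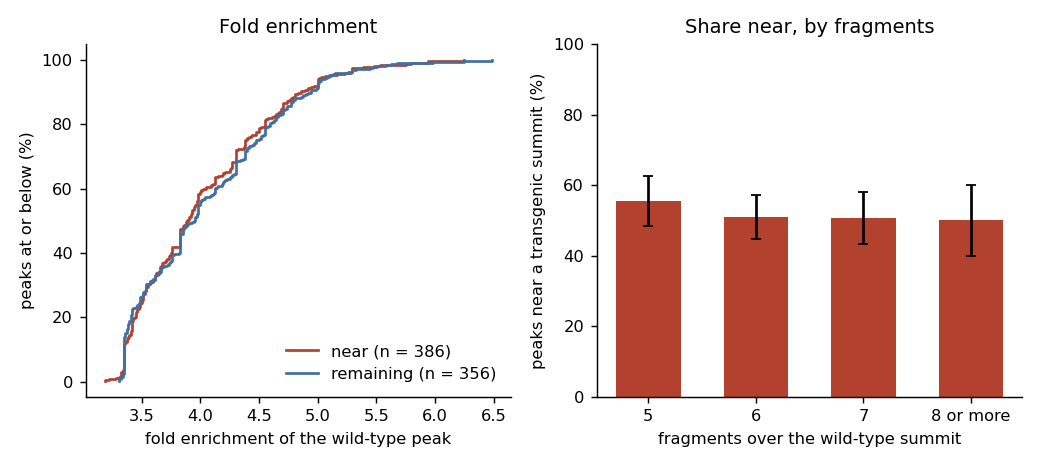
Left, cumulative percent of near (n = 386) and remaining (n = 356) wild-type peaks by fold enrichment. Right, percent of wild-type peaks that are near a transgenic summit by fragments over the summit, with 95% exact binomial intervals. The curves run together, and the bars stay between 50% and 55.6%.

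Of the wild-type peaks inside coding genes a larger share was near than of coding gene sequence, and the ratio was higher there than elsewhere. The body of a coding gene held 121 near peaks, or 31.3% (26.7 to 36.2), and 89 remaining peaks, or 25% (20.6 to 29.8). The difference was 6.35 percentage points with an interval from −0.14 to 12.7, which includes 0. Against position the contrast was wider. Of the 210 wild-type peaks inside coding genes 57.6% (50.6 to 64.4) were near, while 30.1% of coding gene sequence lies within 100 kb of a transgenic summit, a ratio of 1.92. Outside coding genes the share was 49.8% (45.5 to 54.1) of 532, against 40.3% of sequence, a ratio of 1.23. The covered share rises with the length of the coding gene, and the ratio of 1.92 was not adjusted for it.

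Both the share and the covered share were highest in the longest genes. In coding genes over 500 kb, 48 of 70 wild-type peaks were near (68.6%, 56.4 to 79.1), where 44.3% of such sequence is covered. In genes of 100 to 500 kb the numbers were 53 of 103 (51.5%, 41.4 to 61.4) against 30.7%, and in genes under 100 kb 20 of 37 (54.1%, 36.9 to 70.5) against 23.1%. The median length of the gene holding the peak was 406 kb (interval 243 to 491) for near peaks and 268 kb (206 to 406) for remaining peaks.

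Near peaks were more often far from any coding gene than remaining peaks were. Intergenic sequence held 200 of them (51.8%, against 57.3% of the remaining peaks), other gene bodies, such as noncoding genes and pseudogenes, 48 (12.4% against 12.1%), and flanks within 2 kb of a gene 17 (4.4% against 5.62%). Each of these 3 differences had an interval that includes 0. The intergenic near peaks lay farther out, at a median of 106 kb from the closest coding gene against 62.3 kb. Of all near peaks 35.8% (31.0 to 40.8) were more than 100 kb from a coding gene, and of the remaining peaks 25.3% (20.8 to 30.1), a difference of 10.5 percentage points (3.84 to 16.9). This measure was added after seeing the data. The rule itself favours such a difference, as 40.3% of sequence outside coding genes was covered and 30.1% inside. No covered share was taken for positions more than 100 kb from a coding gene, so an excess over position was not tested there. The 1 Mb around the summit held a median of 4 coding genes for near peaks (quartiles 1 and 7) and 5 for remaining peaks (2 and 9). It held over 15 coding genes for 6.99% of near peaks and 11.0% of remaining peaks, a difference whose interval, from −8.21 to 0.162 percentage points, includes 0.

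Since transgenic summits are themselves sparse where genes are dense, the share was also read by gene number. In 1 Mb windows with over 15 coding genes, where transgenic density was 1.43 per Mb, 25 of 73 wild-type peaks were near (34.2%, 23.5 to 46.3) against 20.6% of positions. With 6 to 15 genes it was 120 of 239 (50.2%, 43.7 to 56.7) against 32.9%, and with 1 to 5 genes, where density was 3.21 per Mb, 204 of 357 (57.1%, 51.8 to 62.3) against 44.2%. In windows with 0 coding genes it was 37 of 73 (50.7%) with an interval from 38.7 to 62.6 that includes the covered 40.9%. The ratio was thus above 1 in each of these 4 classes, between 1.24 and 1.67.

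**Figure D4:**
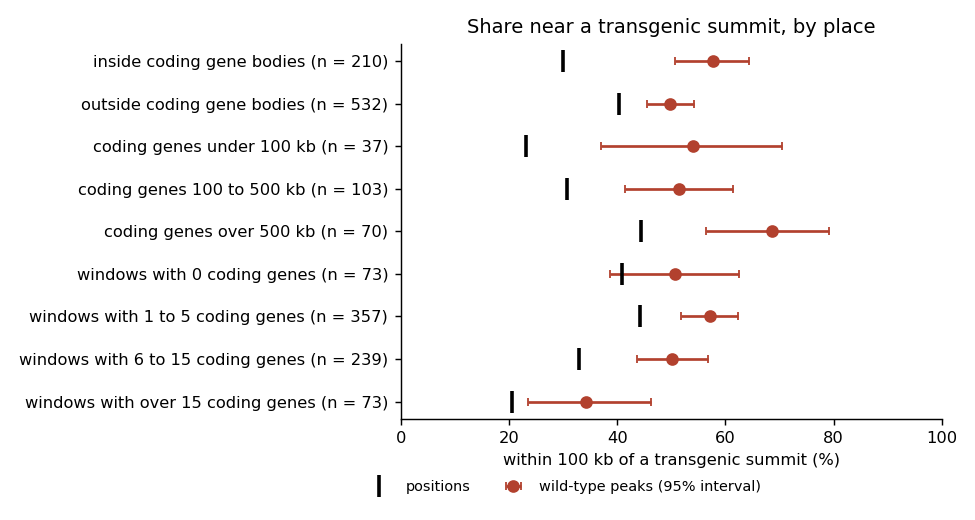
Percent within 100 kb of a transgenic summit inside and outside coding genes, by length of the coding gene and by coding genes per 1 Mb window, as points with 95% exact binomial intervals for wild-type peaks and as black ticks for positions. The interval clears the tick in every class but windows with 0 coding genes, and the widest gap in ratio is in coding genes under 100 kb.

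In 95 of the 121 near peaks inside coding genes, a transgenic summit within 100 kb lay in the same gene (78.5%, 70.1 to 85.5), and 84 genes took part. A long gene leaves more room for that, and 45 of the 95 were in genes over 500 kb. The genes named here ranked highest by the number of such transgenic summits, so their counts are the reason for naming them and are a description. Counts over the whole gene include those summits. An excess over the mean density of the chromosome is therefore favoured by the choice, and the mean is given as a scale only.

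They are described by known role and not in that order. Among genes of receptors, channels and calcium sensing, Grin2a, a subunit of the NMDA glutamate receptor (chromosome 16, 9567901 to 9996083), held 3 near peaks, and 4 transgenic summits lay within 100 kb of the first of them. That peak (9623931 to 9624024) rested on 8 fragments with a fold of 4.30, and the others had folds of 3.6 and 3.42. The whole gene held 8 transgenic summits, against 1.18 at the mean density of the chromosome. Cpne4, of the calcium-dependent membrane-binding copine family, held 2 near peaks, the stronger with a fold of 5.94 on 9 fragments and 3 transgenic summits in reach. Vsnl1, a neuronal calcium sensor, held its only wild-type peak (fold 5.23, 9 fragments) and 3 transgenic summits, where 0.278 would follow from the mean. Cacna2d3, an auxiliary calcium channel subunit, held 3 near peaks and 9 transgenic summits against 2.18. Gabrg3, a GABA-A receptor subunit, held 1 near peak of fold 3.54 and 10 transgenic summits against 1.5.

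Among genes of adhesion, migration and sorting, Cdh13, a cadherin without a cytoplasmic tail, held 3 near peaks with folds of 3.97, 3.94 and 4.64, and 9 transgenic summits against 3.27 at the mean density. Nell1, which encodes a secreted glycoprotein, held 2 near peaks 53 kb apart with folds of 4.81 and 4.30, and 7 transgenic summits against 1.99. Astn2, an astrotactin of neuronal migration, held 1 near peak of fold 4.63, with its closest transgenic summit at 8.89 kb. Dab1, the adaptor of Reelin signalling in cortical layering, held 1 near peak of fold 3.35 and 6 transgenic summits against 2.34. Sorcs2, a sorting receptor of neurons, Ptprt, a receptor tyrosine phosphatase, and Cntn4, a contactin, held 1 near peak each, with folds of 3.45, 4.58 and 3.65.

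Among signalling and other genes, Stac, an adaptor protein with an SH3 domain, held 1 near peak of fold 3.36 and 3 transgenic summits in 129 kb. Prkcb (a protein kinase C), Unc13c (synaptic vesicle priming), Pde10a (a cyclic nucleotide phosphodiesterase) and Pam (peptide amidation) held 1 near peak each, with folds of 4.91, 3.96, 3.68 and 3.73 and 2 transgenic summits in reach. Itgam, an integrin subunit of myeloid cells and microglia, spans 55.9 kb and held 1 near peak of fold 4.14 whose closest transgenic summit was 0.517 kb away. Dmbt1, a scavenger receptor glycoprotein gene of 89.6 kb, held 2 near peaks and 2 transgenic summits.

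Gene lists chosen for cortex held near peaks mainly where their genes are long. Over all 20560 autosomal coding genes, 0.54% held a near peak and 5.4% a transgenic summit in the body. Among 216 coding genes of at least 500 kb the shares were 19.4% and 87.0%, which is a rough level to read the next lists against. That level is not matched to them in length, and the channel and receptor genes have a median below 500 kb. Of 55 axon guidance and adhesion genes, whose median length was 791 kb, 9 held a near peak (16.4%) and 35 a transgenic summit (63.6%). They were Nrxn3, Cntnap5b, Cntn4, Sema6d, Opcml, Cdh13, Pcdh15, Tenm3 and Dpp6. Opcml, an IgLON adhesion gene, held 14 transgenic summits against 2.95 at the mean density, with a near peak of fold 3.62 whose closest transgenic summit was 37.6 kb away. Pcdh15 and Tenm3 held 3 transgenic summits each, against 3.94 and 3.57.

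Of 51 channel and receptor genes, of median length 428 kb, 7 held a near peak (13.7%) and 33 a transgenic summit (64.7%). The 7 were Grin2a, Grm7, Gabrg3, Cacna1d, Cacna2d3, Kcnip4 and Kcnh7. The potassium channel gene Kcnh7 had the strongest of their near peaks, with a fold of 4.86 on 7 fragments, though only 1 transgenic summit lay in the gene. Kcnip4, a potassium channel partner, had a near peak of fold 4.38 with a transgenic summit 7.68 kb away. In each of the 16 genes of these 2 lists every near peak had a transgenic summit within 100 kb in the same gene. The rule and the length of these genes favour that. Over all coding genes it held for 45 of 48 near peaks in genes over 500 kb, and for 44 of 53 in genes of 100 to 500 kb.

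Few progenitor and chromatin genes held a near peak, and few would at the 0.54% of all coding genes. Of 22 radial glia genes Palld alone held a near peak (fold 3.38, closest transgenic summit at 71.3 kb). Counts were 0 of 8 for intermediate progenitor genes, 0 of 15 for cortical neuron genes, 0 of 12 for interneuron genes and 0 of 23 for H3K9 methylation genes, Ehmt1 and Ehmt2 among them. For genes of other cell types the counts were 0 of 11 for microglia and blood and 1 of 10 for vessels and meninges. The latter was Cdh5, the endothelial cadherin, with a fold of 3.35 and a transgenic summit 3.92 kb away. Itgam, the gene of myeloid cells and microglia named above, held a near peak but was not in the list, so the 0 of 11 holds for the listed genes only. The listed genes are short, with list medians from 2.96 to 43.1 kb, and at 0.54% of genes a list of this size holds less than 1 near peak. A lack of near peaks was therefore not detectable in them.

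Of the 10 closest pairs 8 lay outside coding genes, as did 265 of all 386 near peaks. In 4 of the 10 the peaks overlapped: 49.2 kb from Nrep on chromosome 18 (summits 0.017 kb apart), 70.3 kb from Ldb2 on chromosome 5, inside the zinc transporter gene Tmem163 on chromosome 1, and 19.9 kb from Wscd1 on chromosome 11. Their wild-type folds were 3.34 to 3.42, at the low end of the list. The next, at 0.095 kb, was the strongest of the 10, with a fold of 5.0 on 7 fragments at chromosome 3, 23773405 to 23773461, and lay 24.7 kb from Naaladl2. The others, between 0.219 and 0.444 kb, lay near Ajap1, Sorcs1, Ctnna3 and Lpp and inside Adamtsl1, a matrix protein gene, with folds from 3.38 to 4.30. Sorcs1 and Ctnna3 were 639 and 875 kb away, and the 1 Mb around each of those pairs held 0 coding genes.

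The near peaks with most transgenic summits had 4 to 6 of them. A peak on chromosome 3 (100331266 to 100331322, fold 3.83), 124 kb from Gdap2, had 6, with another wild-type peak 80.6 kb away. One on chromosome 16 (25120533 to 25120634, fold 3.68), 128 kb from Lpp, also had 6, the closest at 0.376 kb. Another with 6 lay on chromosome 15 (87207993 to 87208049, fold 3.44) in the noncoding gene A930027H12Rik, 336 kb from Tafa5. A peak on chromosome 14 (fold 4.01), 414 kb from 1700129C05Rik, had 5. Those with 4 were near Gfra2 (fold 4.55) and Prelid2 (3.51) and inside Grin2a and Stac. The fold of the transgenic peaks around these 8 ran from 2.86 to 5.03.

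**Figure D5:**
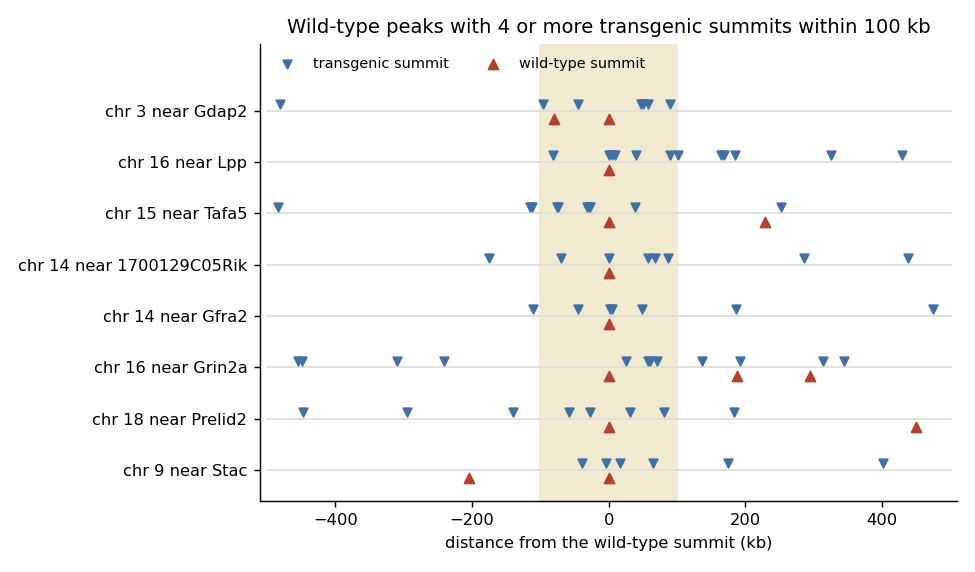
Wild-type (upward triangles) and transgenic (downward triangles) summits within 500 kb of the 8 near peaks that have 4 or more transgenic summits within 100 kb (shaded), each centred on that peak and named by chromosome and closest coding gene. Transgenic summits go on beyond the shaded stretch around each of the 8, though around Gdap2 there is only 1 outside it, at −481 kb.

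The near peaks of lowest p had 1 to 3 transgenic summits within 100 kb. Beside those in Cpne4 and Vsnl1, they included an intergenic peak on chromosome 13, 517 kb from Adarb2, with a fold of 5.94 on 9 fragments and 1 transgenic summit at 63.7 kb with a fold of 3.02. The peak in Lhcgr, which encodes the receptor for luteinizing hormone, had a fold of 5.86 and 1 transgenic summit at 59.3 kb with a fold of 4.41. Others lay 303 kb from Armc1 (5.80), 108 kb from Tmtc2 (5.76), 4.97 kb from the chemokine gene Ccl2 (5.53) and 22.7 kb from Maip1 (5.28), and inside Agbl1 (5.50), a tubulin deglutamylase. The Ccl2 peak had 3 transgenic summits within 100 kb, the closest at 47.1 kb with a fold of 2.89. The Tmtc2 peak had 2, the closest at 1.29 kb.

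A few groups, picked after their values were seen, held several near peaks. On chromosome 17 near Dll1, a Notch ligand of neural progenitors, 4 near peaks with folds of 3.40 to 4.55 lay within 87.0 kb around a single transgenic summit, the closest of them 46.4 kb from the gene. On chromosome 11, 318 to 441 kb from Meis1, a homeobox gene, 3 near peaks shared 1 transgenic summit. Beside Cxcr4, the chemokine receptor of migrating neurons, 2 near peaks (folds 3.98 and 3.83, at 25.6 and 106 kb) shared a stretch of 201 kb with 4 transgenic summits. Near peaks had another wild-type summit within 100 kb in 12.7% of cases (9.54 to 16.4), and remaining peaks in 12.1% (8.88 to 15.9), with overlapping intervals.

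At the other end, the remaining peaks farthest from a transgenic summit stood among many genes. The farthest was inside Septin9, a cytoskeletal gene of chromosome 11, at 2213 kb, with a fold of 3.98. The next stood at 1916 kb near the tubulin gene Tuba1c, 1487 kb near Klhl12, 1266 kb near Slco4a1 and 1247 kb near Aifm2. The 1 Mb around these 5 held 10 to 35 coding genes, against a median of 5 for remaining peaks.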

How the data were processed

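H3K9me2 ChIP was sequenced in 1 wild-type and 1 TBC1D3 transgenic cortex library. The authors called peaks library by library, each against its own input, per the file headers, with MACS 2.1.0.20150420, a p cutoff of 0.001, no shift model, broad calling off and an extension of 57 bp (wild type) or 111 bp (transgenic). BWA and mm10 are named in the submitters' processing notes. The deposited pileup signal counts extended fragments after scaling, and dividing it by that scale (0.951 and 1) gave fragments whole within 0.02. The deposited fold is the ratio of pileup to local background, each plus 1, and −log10 p and −log10 q are the deposited caller's values. The headers state that no q would be given, yet the tables hold one, so q was used for the count at 0.05 only. Extension, depth and list length differ between libraries, so no level was compared across them.

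Near peaks were found from summits within 100 kb. The covered share is the union of such windows over the autosomes, an exact count. Genes came from RefSeq GRCm38.p6 (46714 autosomal genes, 20560 coding), without the 328 placed before 3 Mb, and positions were classed by summit. Shares have exact (Clopper-Pearson) binomial, densities exact Poisson, differences Newcombe and medians order-statistic 95% intervals (Python 3.11.15, pandas 2.3.3, numpy 2.4.6, scipy 1.17.1, matplotlib 3.10.9). The rule was checked on made-up positions. Named genes were up to 20 coding genes sharing a near peak and most transgenic summits, the 10 closest pairs, the 10 near peaks with most transgenic summits, the 10 of lowest p, the 5 farthest remaining peaks, 3 on each side of the limit, and list genes with a near peak. One gene the rule selected is not reported here. The members and lists were chosen with earlier results of these data known. Base composition of peaks was planned and not analysed here, as no genome was used.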

Additional observations from a re-analysis of the deposited data

How the results depend on the processing

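No library could be left out. No paired analysis was possible because each genotype has 1 library. Of 39 values recomputed, 17 stayed within the interval of the reported value, or within 1.5 times a count, and 22 moved. Distances set the share directly. It was 10.1% at 10 kb, 31.5% at 50 kb, 71.3% at 200 kb and 92.7% at 500 kb, and its ratio to the covered share was 2.1, 1.51, 1.25 and 1.12. Shorter lists lowered the share by construction, to 21.7% with transgenic peaks of −log10 p of at least 5, to 23.8% (44 of 185 peaks) with both lists so limited, to 7.95% with the transgenic list shortened to 742 peaks, and to 1.61% (1 of 62) at a fold of at least 5 in both. The ratios were 1.48, 1.63 (1.22 to 2.09), 1.37 and 1.23, the last with an interval of 0.031 to 6.58 that carries no information. Edges in place of summits gave 1.44, and lengths from first to last peak 1.43. Under that limit on both lists (−log10 p no lower than 5), the coding gene share of near peaks was 25%, their median fold 4.78, the pairs in one gene 10 and the transgenic peaks concerned 54. Pairs in one gene numbered 57 at 50 kb, and transgenic peaks concerned 297 at 50 kb and 962 at 200 kb. The median number of coding genes around near peaks was 9 in 2 Mb and 1 in 500 kb, as the window dictates. For the other moves the cause was not tested.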
